A study of Homo sapiens and Mus musculus with 15 samples.

Results

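The cancer-testis antigen families were followed in the human myeloma line 8226 as gene symbols starting MAGEA, MAGEB, MAGEC, GAGE, PAGE, XAGE, SSX or CTAG, with the CT45A genes, SAGE1, PASD1, FAM133A, FAM9B, PRAME and DDX53. The spelling rule matched 97 of 23346 listed genes. Of these, 87 belong to the named families or are named singly, and 10 (9 CTAGE genes and SSX2IP) match the spelling but lie outside those families. The 10 are described apart. RNA was sequenced from 2 drug-resistant derivatives and the drug-naive parent of 8226 (RPMI-8226, an established line from a human plasma cell myeloma), with 3 libraries in each group. BR cells had been raised over several months in rising bortezomib and were kept in 10 nM of it. CR cells had been raised likewise in carfilzomib and were kept in 10 nM of that. Naive cells had no drug resistance. Lines were used within a month of thawing, and the protocol took cells off the drug 5 days before RNA extraction. Both drugs inhibit the proteasome, bortezomib as a boronate and carfilzomib as an epoxyketone. With 1 derivative line for each drug, the effects of drug, resistance and the making of that line cannot be told apart. The labels do not say whether a group's 3 libraries came from separate cultures, so the p-values reflect only their spread, which may be technical.

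Cancer-testis antigens are proteins that healthy adults make mainly in germ cells of the testis and that many tumours make again. Most of their genes lie on the X chromosome in repeated, near-identical copies and are held silent in other tissues by DNA methylation of their promoters. In myeloma MAGEC1, MAGEA3 and CTAG1B (NY-ESO-1) are the best-known members, and peptides of such proteins shown on MHC class I can be recognised by T cells. Of the 87 family members, 78 were found in the RefSeq gene table, which places 77 on chromosome X and PRAME on chromosome 22.

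Reads on genes totalled 31709636 to 34339788 per library in BR cells, 41964250 to 58419576 in CR cells and 39032731 to 46874782 in naive cells. Levels are CPM, the read count divided by the library's size in units of 1000000 reads after scaling by TMM (trimmed mean of M values). A member is called silent in a group below a mean of 0.1 CPM, low from there, and expressed from 1 CPM. The limit that a count of 0 allows over a group, 3 reads, was 0.0279 CPM in BR cells, 0.0198 CPM in CR cells and 0.0248 CPM in naive cells. Such limits and the intervals below cover counting error only. Counting set aside reads that map to several places, which made up 8.95% to 10.9% of reads, so near-identical copies are undercounted. RNA came from bulk cultures, in which fewer expressing cells and less RNA per cell cannot be told apart. Plasma cell markers summed to 1623 to 1668 CPM in BR, 1438 to 1501 CPM in CR and 2176 to 2368 CPM in naive libraries. They did not move together, with 3 of 9 tested higher and 6 lower in BR and 2 higher and 7 lower in CR cells. The test described below thus called 100% of these 9 in either comparison, beside 79.8% (BR) and 71.7% (CR) of all tested genes. Among the 9, TNFRSF17 (BCMA) averaged 144 ± 4.04 CPM in BR and 13.5 ± 0.243 CPM in CR, against 41.1 ± 2.78 CPM in naive cells. B cell markers summed to 0.0548 to 0.204 CPM in BR, 0.942 to 1.11 CPM in CR and 39.7 to 41.4 CPM in naive libraries, nearly all of the last from the complement receptor CR2. Myeloid markers summed to 32.4 to 35.6 CPM in BR, 15.7 to 16.4 CPM in CR and 49.5 to 55.3 CPM in naive libraries, and epithelial ones to 229 to 243, 263 to 272 and 302 to 315 CPM in BR, CR and naive libraries. T and NK cell markers summed to 9.50 to 10.1, 7.28 to 7.86 and 5.70 to 6.51 CPM, fibroblast ones to 1.12 to 1.37, 0.247 to 0.58 and 1.29 to 1.76 CPM, and erythroid ones to at most 0.0292, at most 0.0483 and 3.46 to 6.32 CPM in BR, CR and naive libraries. Most of the T and NK cell sum came from CD8A, at 9.87, 6.31 and 4.58 CPM in BR, CR and naive cells. The other tested genes of that list, CD3E and CD3G, had 3 and 0 reads in BR and 62 and 139 in CR, against 173 and 6 in naive cells. Markers of spermatids summed to at most 0.135 CPM in any library, with none of their 6 genes expressed. Markers of Sertoli and Leydig cells summed to 2.59 to 3.15 CPM in BR, 5.14 to 7.34 CPM in CR and 1.49 to 1.93 CPM in naive libraries, with AMH the only 1 of 6 expressed. The part of these other cell types' genes in the members' levels was not tested.

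The promoters of some members described below are printed to show how alike or unlike those of related genes are. Each is the 250 bases upstream of the RefSeq start on build GRCh38.p14, read 5′ to 3′ on the gene's strand, with every CG dinucleotide, the site of DNA methylation, in capitals. GAGE2A lies on the plus strand at chrX:49589246-49589495, and GAGE12J, on the plus strand at chrX:49321787-49322036, has the identical 250 bases.
GAGE2A: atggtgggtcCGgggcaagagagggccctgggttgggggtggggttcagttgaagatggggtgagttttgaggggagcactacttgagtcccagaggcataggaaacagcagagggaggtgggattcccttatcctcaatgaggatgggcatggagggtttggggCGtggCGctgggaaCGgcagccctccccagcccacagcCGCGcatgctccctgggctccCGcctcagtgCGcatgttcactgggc
MAGEA3 lies on the plus strand at chrX:152698544-152698793, and MAGEA6, on the minus strand at chrX:152769690-152769939, is identical to it over all 250 bases.
MAGEA3: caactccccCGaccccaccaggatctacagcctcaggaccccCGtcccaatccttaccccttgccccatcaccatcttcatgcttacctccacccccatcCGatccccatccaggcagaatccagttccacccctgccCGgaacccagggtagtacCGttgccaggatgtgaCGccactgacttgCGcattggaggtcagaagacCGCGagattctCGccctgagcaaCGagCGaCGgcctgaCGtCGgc
PASD1 lies on the plus strand at chrX:151563425-151563674.
PASD1: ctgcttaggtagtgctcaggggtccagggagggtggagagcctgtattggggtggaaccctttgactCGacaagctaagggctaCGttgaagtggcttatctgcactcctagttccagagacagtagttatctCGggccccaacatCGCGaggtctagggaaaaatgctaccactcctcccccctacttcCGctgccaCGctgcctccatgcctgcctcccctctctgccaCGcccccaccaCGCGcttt
MAGEC1, on the plus strand at chrX:141903644-141903893, and MAGEC2, on the minus strand at chrX:142205291-142205540, align at 55.5% identity.
MAGEC1: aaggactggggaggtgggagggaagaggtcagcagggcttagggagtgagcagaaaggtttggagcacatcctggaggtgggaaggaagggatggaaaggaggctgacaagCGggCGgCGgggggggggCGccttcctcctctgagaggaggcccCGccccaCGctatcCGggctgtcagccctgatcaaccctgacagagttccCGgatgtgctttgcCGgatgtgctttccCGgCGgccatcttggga
MAGEC2: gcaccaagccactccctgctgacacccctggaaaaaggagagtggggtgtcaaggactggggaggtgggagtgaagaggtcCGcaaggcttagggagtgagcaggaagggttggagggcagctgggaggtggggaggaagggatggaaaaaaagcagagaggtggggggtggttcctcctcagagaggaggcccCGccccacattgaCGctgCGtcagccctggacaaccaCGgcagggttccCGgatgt
PAGE1, on the minus strand at chrX:49695985-49696234, and PAGE5, on the plus strand at chrX:55220096-55220345, align at 45.2% identity, and PAGE1 aligns with GAGE2A at 66.4%.
PAGE1: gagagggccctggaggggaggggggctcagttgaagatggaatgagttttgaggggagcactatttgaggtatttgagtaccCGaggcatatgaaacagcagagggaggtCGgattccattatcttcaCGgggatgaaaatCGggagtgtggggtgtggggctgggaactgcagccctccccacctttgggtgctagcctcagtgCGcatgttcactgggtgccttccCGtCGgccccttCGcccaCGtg
PAGE5: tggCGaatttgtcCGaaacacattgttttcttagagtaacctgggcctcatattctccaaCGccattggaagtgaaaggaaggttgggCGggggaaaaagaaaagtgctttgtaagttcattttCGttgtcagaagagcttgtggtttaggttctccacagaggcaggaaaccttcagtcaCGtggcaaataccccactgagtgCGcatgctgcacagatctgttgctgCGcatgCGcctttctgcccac
These stretches hold 8 CG dinucleotides in GAGE2A, 15 in MAGEA3, 10 in PASD1, 11 in MAGEC1, 6 in MAGEC2 and 9 each in PAGE1 and PAGE5. Over the 58 members with a promoter in the table the median was 8 and the range 1 to 18, against a median of 11 over all 35116 promoters.

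The cancer-testis repertoire narrowed in BR cells and widened in CR cells, and the members concerned differed. Of 87 family members, 6 were expressed in BR cells and 17 in CR cells, against 13 in naive cells. Another 2, 6 and 5 were low in BR, CR and naive cells, and 79, 64 and 69 were silent. Of all 23346 listed genes, the expressed share was 47.6% in BR and 49.0% in CR, against 50.3% in naive cells. The summed level of the family members was 210 ± 6.32 CPM in BR and 892 ± 11 CPM in CR, against 153 ± 10.3 CPM in naive libraries (SD, n = 3 each). The summed level was thus higher in every library of either resistant group than in any naive one, although BR cells expressed fewer members. PASD1 alone averaged 74.3 CPM in BR, against 0.0439 CPM in naive libraries. That gap exceeds the difference between the BR and naive sums, so the higher BR sum rests on this gene. In all, 22 of the 87 were expressed in at least 1 group.

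**Figure D1:**
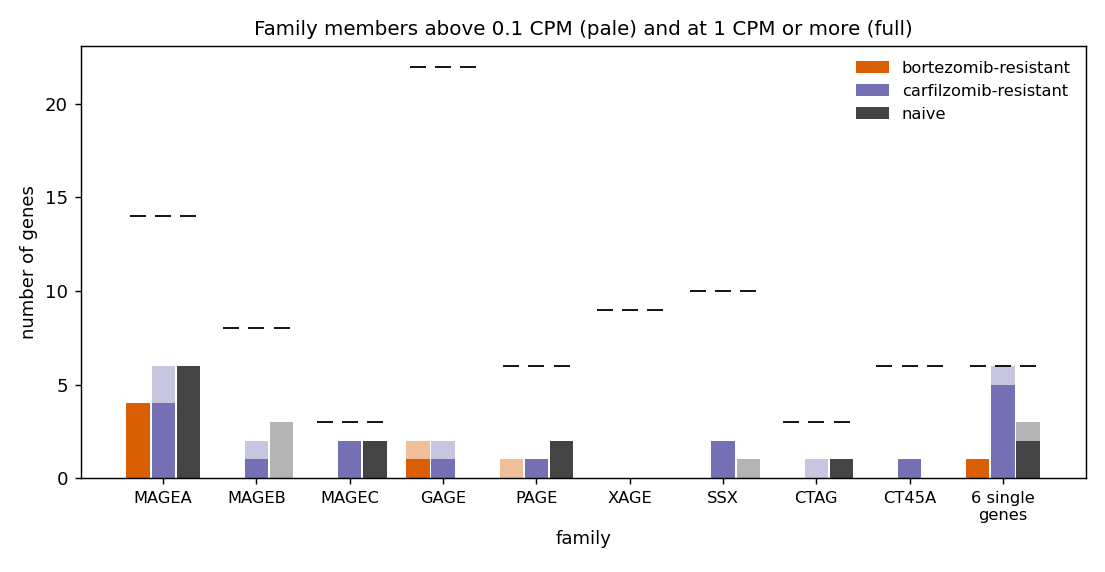
Number of genes of each family (vertical axis) that were low (pale, 0.1 to below 1 CPM) or expressed (full colour, 1 CPM or more) by group mean in BR, CR and naive 8226, with a dash at the number of genes listed. In CR cells 17 members reach 1 CPM, against 6 in BR and 13 in naive cells, and no XAGE gene has a bar.

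Each pair of groups was compared with the quasi-likelihood test of edgeR, with p adjusted by Benjamini-Hochberg over 13910 genes and called below 0.05. The filter on low counts let 25 of the 87 members through. In BR against naive cells 7 members rose, 12 fell, 6 were tested without a call and 62 were not tested. Over all tested genes 79.8% were called in that comparison, 38.2% higher and 41.6% lower. In CR against naive cells 18 members rose, 6 fell, 1 was not called and 62 were not tested, where 71.7% of all tested genes were called, 35.0% higher and 36.7% lower. These comparisons share the naive libraries. In CR against BR cells 19 rose, 3 fell, 3 were not called and 62 were not tested, where 76.9% of all tested genes were called, 39.9% higher and 37.0% lower. With library size alone in place of TMM, which moved the median log2 change of all genes by 0.18 in BR against naive cells and by -0.10 in CR against BR cells, the higher share of all BR against naive calls was 58.7% in place of 47.9%. Of the called members, 2 were higher and 11 lower past 5 on the log2 scale in BR against naive cells, where 1.32% and 8.27% of all tested genes were. In CR against naive cells 9 were higher and 3 lower past 5 (1.46% and 4.22% of all tested genes), and in CR against BR cells 14 and 1 (5.48% and 1.37%), with fitted changes that depend on the prior count where a group had no read. A member that passed the filter only because a group expressed it had to differ, so these counts are a record and not evidence about the families.

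**Figure D2:**
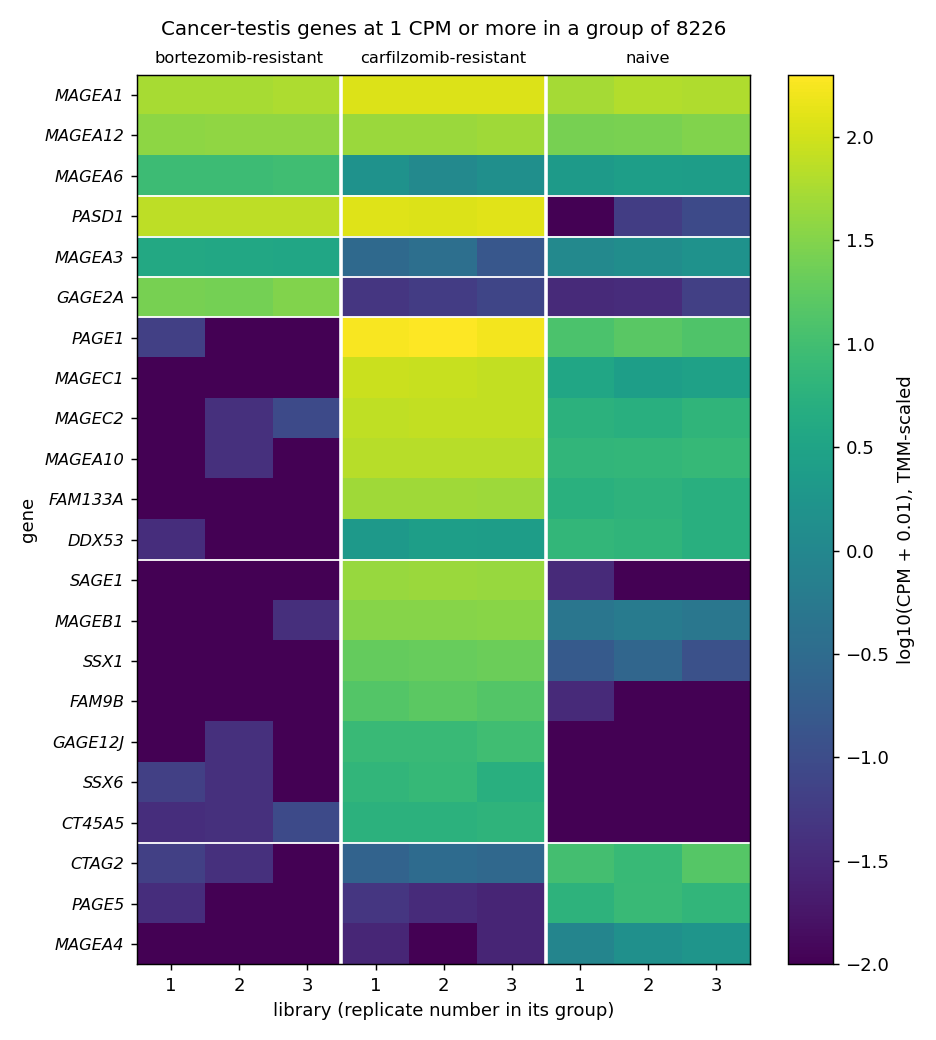
Levels of the 22 members with a mean of 1 CPM or more in a group, by library (columns 1 to 3 of BR, CR and naive 8226), as log10(CPM + 0.01) on a colour scale. MAGEA1, MAGEA12 and MAGEA6 are expressed in all 3 groups, PASD1 in BR and CR, GAGE2A in BR alone, and 13 members are bright in CR and dark in BR.

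The MAGEA genes code for adaptor proteins that bind RING-type ubiquitin ligases. Of 14 listed, 4 were expressed in BR, 4 in CR and 6 in naive cells. MAGEA1, the first tumour antigen gene found through T cells, had 53.6, 54.3 and 59.4 CPM in the BR libraries and 120.3, 117 and 117 CPM in the CR libraries, against 52.8, 62.6 and 60.3 CPM in the naive libraries. The CR libraries stood above all others, and the BR and naive libraries overlapped. MAGEA1 rose in CR against naive cells (log2 fold change 1.01 ± 0.0650 SE, adjusted p = 1.5e-09) and was not called in BR against naive cells (-0.07 ± 0.0660, adjusted p = 0.34). Without naive replicate 1 that last comparison was called lower, at -0.14 (adjusted p = 0.048), and with library size alone in place of TMM it was 0.12. MAGEA12 had 37.7, 39.2 and 38.7 CPM in BR and 45.3, 44.3 and 48.6 CPM in CR libraries, against 25.8, 27.7 and 30.8 CPM in naive libraries. It rose in BR (0.46 ± 0.0693, adjusted p = 1.9e-05) and in CR cells (0.72 ± 0.0683, adjusted p = 1.6e-07). MAGEA12 was also higher in CR than in BR cells (0.26 ± 0.0675, adjusted p = 0.0027), a call that library size alone ended (0.13, adjusted p = 0.084).

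MAGEA3 and MAGEA6, near-identical genes whose proteins direct the ligase TRIM28 to the energy sensor AMPK, rose in BR cells and fell in CR cells. MAGEA3 had 3.92, 3.76 and 3.48 CPM in BR and 0.285, 0.362 and 0.139 CPM in CR libraries, against 1.03, 1.26 and 1.57 CPM in naive libraries. MAGEA6 had 8.85, 8.72 and 9.45 CPM in BR and 1.56, 1.04 and 1.39 CPM in CR libraries, against 2.20, 2.6 and 2.49 CPM in naive libraries. For either gene the 3 groups did not overlap. In BR against naive cells the log2 changes were 1.54 ± 0.175 for MAGEA3 (adjusted p = 8.5e-07) and 1.89 ± 0.117 for MAGEA6 (adjusted p = 5.7e-10). In CR against naive cells they were -2.33 ± 0.269 (adjusted p = 1.4e-06) and -0.85 ± 0.145 (adjusted p = 8.3e-05). CR libraries lay below BR libraries by -3.87 ± 0.226 for MAGEA3 and -2.74 ± 0.124 for MAGEA6. Of the 50-base stretches of their transcripts, 43.5% for MAGEA3 and 46.1% for MAGEA6 occur in no other gene, so the split of reads between the copies is uncertain.

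MAGEA10 and MAGEA4 differed more widely. MAGEA10 had 0, 0.0292 and 0 CPM (1 read in all) in BR and 67.9, 69.9 and 68.7 CPM in CR libraries, against 6.86, 6.96 and 7.51 CPM in naive libraries. BR libraries lay at the bottom, CR libraries at the top, and naive libraries between. It rose in CR against naive cells by 3.28 ± 0.0737 (adjusted p = 5.2e-15), and naive cells held 762 times the BR level (95% counting interval 136 to 30151, adjusted p = 4.7e-14). MAGEA4, a target of engineered T cell receptors, had no read in the BR libraries and 0.0190, 0 and 0.0174 CPM in CR libraries, against 0.897, 1.44 and 1.74 CPM in naive libraries. It fell at least 47.6-fold in BR cells (adjusted p = 1.7e-07), and the naive level was 101 times that in CR cells (95% counting interval 27.4 to 839, adjusted p = 1.1e-07). The read-through locus MAGEA10-MAGEA5 had 17 reads in CR cells and none in BR or naive cells, too few to be tested. Of the other 7, MAGEA2, MAGEA8 and MAGEA11 had at most 8 reads in a group, and MAGEA2B, MAGEA5, MAGEA9 and MAGEA9B had none in any library.

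The MAGEB and MAGEC genes code for related ligase partners, and in CR cells their main members rose while in BR cells they fell. MAGEC1, which carries a long run of repeats and is often made by myeloma cells, had no read in any BR library and 91.0, 88.0 and 80.4 CPM in CR libraries, against 3.48, 2.57 and 2.85 CPM in naive libraries. MAGEC2, a partner of TRIM28, had 0, 0.0292 and 0.0822 CPM in BR and 78.7, 79.0 and 80.0 CPM in CR libraries, against 5.76, 5.22 and 6.51 CPM in naive libraries. The groups were apart for both genes, with CR highest and BR lowest. MAGEC1 fell at least 107-fold in BR cells (adjusted p = 3.5e-10) and rose in CR cells by 4.86 ± 0.101 on the log2 scale (adjusted p = 5.5e-14). MAGEC2 fell by 7.18 ± 0.270 in BR cells (adjusted p = 1.3e-12) and rose by 3.77 ± 0.0898 in CR cells (adjusted p = 9.3e-15). CR cells held at least 3087-fold more MAGEC1 than BR cells (adjusted p = 5.0e-15), and MAGEC2 was higher in CR than in BR cells by 10.95 ± 0.185 (adjusted p = 1.4e-16). The third listed gene, MAGEC3, had 1 read in CR and 1 in naive cells.

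MAGEB1 had 0, 0 and 0.0274 CPM in BR and 32.8, 33.4 and 34.2 CPM in CR libraries, against 0.471, 0.605 and 0.488 CPM in naive libraries. It was therefore expressed in CR cells, low in naive cells and silent in BR cells. The CR rise was 6.0 ± 0.117 (adjusted p = 1.1e-15), and the naive level was 55.9 times the BR level (95% counting interval 9.68 to 2243, adjusted p = 1.7e-07). MAGEB3 was low in CR cells alone, with 76 reads there, none in BR cells and 1 in naive cells (adjusted p = 1.9e-06 in CR against naive cells). MAGEB6 ran the other way, with no read in BR and 2 in CR cells, against 32 in naive cells. MAGEB16 likewise had none in BR and 1 in CR cells, against 12 in naive cells, and neither it nor MAGEB6 passed the filter. The remaining 4 of 8 MAGEB genes had at most 8 reads in a group.

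GAGE, PAGE and XAGE genes code for small, acidic, disordered proteins. Among the 22 GAGE genes, counts reached 1 CPM for 1 copy in each resistant line, and not the same one. Whether further copies were expressed cannot be told, as several have no stretch of their own and would lose any reads. GAGE2A had 26.4, 25.7 and 30.8 CPM in BR and 0.0380, 0.0483 and 0.0695 CPM in CR libraries, against 0.0224, 0.0252 and 0.0542 CPM in naive libraries. GAGE12J had 0, 0.0292 and 0 CPM in BR and 8.11, 8.14 and 9.75 CPM in CR libraries, against no read in naive libraries. GAGE2A was thus high in BR libraries alone, and GAGE12J in CR libraries alone. GAGE2A rose in BR cells by 9.58 ± 0.197 (adjusted p = 1.0e-15) and was not called in CR against naive cells (0.63 ± 0.721, adjusted p = 0.48). GAGE12J rose at least 353-fold in CR cells (adjusted p = 6.7e-12) and was not called in BR against naive cells (adjusted p = 0.27). In CR against BR cells GAGE2A was lower by -8.95 ± 0.176 (adjusted p = 8.1e-16), and GAGE12J was 939.7 times higher (95% counting interval 168 to 37143, adjusted p = 7.9e-12).

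The counts name the copies only as far as their sequences differ. Of the 50-base stretches of the transcripts, 14.8% for GAGE2A and 10.2% for GAGE12J occur in no other gene, while their printed promoters are the same letter for letter. GAGE10 was low in BR and CR cells, with 16 and 45 reads, against 3 in naive cells. The CR level was 12 times the naive level (95% counting interval 3.85 to 60.3, adjusted p = 0.00019). The BR level was 6.01 times the naive level (1.72 to 32.2, adjusted p = 0.010), a call lost without BR replicate 2 (adjusted p = 0.057). GAGE1 had 7, 8 and 9 reads in BR, CR and naive cells, and the other 18 GAGE genes had none in any library.

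PAGE1 and PAGE5, both expressed in naive cells, parted in CR cells. PAGE1 had 0.0544, 0 and 0 CPM in BR and 183, 195 and 169.9 CPM in CR libraries, against 11.8, 15.6 and 13.1 CPM in naive libraries. PAGE5 had 0.0272, 0 and 0 CPM in BR and 0.0380, 0.0242 and 0.0174 CPM in CR libraries, against 5.90, 8.17 and 6.67 CPM in naive libraries. PAGE1 rose in CR cells by 3.76 ± 0.0977 (adjusted p = 2.6e-14), where PAGE5 fell by 7.88 ± 0.287 (adjusted p = 1.4e-12). In BR cells both fell. The naive level of PAGE1 was 724 times that in BR cells (95% counting interval 200.2 to 5986, adjusted p = 2.4e-13), and that of PAGE5 was 739 times the BR level (132 to 29239.8, adjusted p = 2.4e-12). Of the other 4 PAGE genes, PAGE2B was low in BR cells with 11 reads, and had 13 in CR and 3 in naive cells. PAGE2 had 9 reads in naive cells alone, PAGE3 and PAGE4 had 1 and 3 in CR cells alone, and none of the 4 was tested. No XAGE gene was expressed: of 9, only XAGE3 had any read, 1 in BR and 1 in naive cells.

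**Figure D3:**
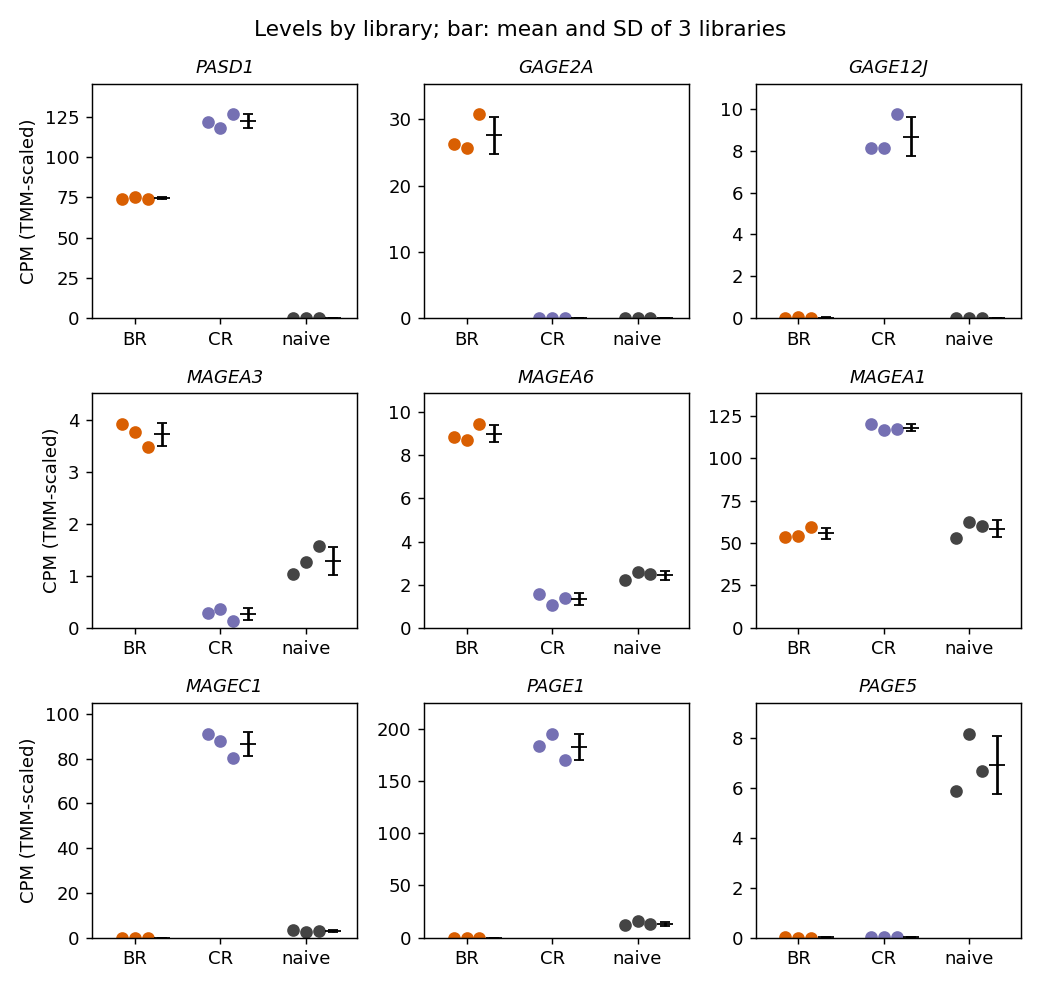
Levels of 9 members (panels) in CPM on TMM-scaled library sizes for each library of BR, CR and naive 8226, with a bar for the mean and SD of 3 libraries, each panel on its own linear scale from 0. GAGE2A is high in BR and GAGE12J in CR, MAGEA3 and MAGEA6 are highest in BR and lowest in CR, and PAGE1 and PAGE5 part in CR.

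SSX genes code for nuclear proteins that repress transcription, and CT45A genes for a family of nuclear antigens. SSX1, a partner of SS18 in the fusion of synovial sarcoma, had no read in BR libraries and 19.1, 19.7 and 21.6 CPM in CR libraries, against 0.157, 0.252 and 0.108 CPM in naive libraries. It rose in CR cells by 6.84 ± 0.165 (adjusted p = 2.6e-13) and fell at least 6.21-fold in BR cells (adjusted p = 0.00017). SSX6, listed by RefSeq as a transcribed pseudogene, had 0.0544, 0.0292 and 0 CPM in BR and 6.78, 7.51 and 5.09 CPM in CR libraries, against no read in naive libraries. CT45A5 had 0.0272, 0.0292 and 0.0822 CPM in BR and 5.87, 5.82 and 6.33 CPM in CR libraries, against no read in naive libraries. For these 3 genes the CR libraries stood far above both other groups. SSX6 rose at least 256-fold (adjusted p = 1.9e-10) and CT45A5 at least 243-fold (adjusted p = 6.5e-12) in CR against naive cells. CT45A5 was also called in BR against naive cells, at least 1.88-fold higher on 5 reads (adjusted p = 0.010), and was not called without BR replicate 3 (adjusted p = 0.059). Only 8.36% of its 50-base stretches are found in no other gene, and CT45A1, with 2 reads in CR cells, was the only other CT45A gene with any. Of the other 8 SSX genes, SSX3 had 1 read in CR cells and the rest had none.

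The single genes on chromosome X were all expressed in CR cells, and PASD1 was the only one expressed in BR cells. PASD1, a PAS-domain protein that inhibits the circadian CLOCK and BMAL1 pair and is known as an antigen of blood cancers, had 73.8, 75.0 and 74.1 CPM in BR and 122, 118 and 127 CPM in CR libraries, against 0, 0.0505 and 0.0813 CPM in naive libraries. Both resistant lines stood far above the naive one, which had 5 reads in all. The log2 rise was 10.71 ± 0.160 in BR (adjusted p = 3.6e-17) and 11.43 ± 0.154 in CR cells (adjusted p = 6.9e-17). CR cells had more PASD1 than BR cells, by 0.72 ± 0.0639 (adjusted p = 5.4e-08).

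SAGE1, a testis protein that binds the Integrator complex subunit INTS3, had no read in BR libraries and 43.5, 45.2 and 43.6 CPM in CR libraries, against 0.0224, 0 and 0 CPM in naive libraries. FAM9B, a relative of the meiotic chromosome protein SYCP3, had no read in BR libraries and 14.2, 16.4 and 14.3 CPM in CR libraries, against 0.0224, 0 and 0 CPM in naive libraries. Both were expressed in CR libraries alone. The CR level was 5333 times the naive level for SAGE1 (95% counting interval 957 to 210674, adjusted p = 6.6e-15) and 1799 times for FAM9B (323 to 71097, adjusted p = 5.2e-13). CR cells held at least 1578-fold more SAGE1 and at least 532-fold more FAM9B than BR cells (adjusted p = 6.0e-15 and 5.2e-13).

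FAM133A had no read in BR libraries and 49.0, 47.9 and 47.3 CPM in CR libraries, against 5.32, 5.90 and 5.10 CPM in naive libraries. It fell at least 195-fold in BR cells (adjusted p = 2.5e-12) and rose by 3.14 ± 0.0776 in CR cells (adjusted p = 3.3e-13). Set against BR cells, CR cells held at least 1722-fold more (adjusted p = 2.7e-15). DDX53, a DEAD-box RNA helicase, was the 1 single gene lower in CR than in naive cells. It had 0.0272, 0 and 0 CPM in BR and 2.03, 2.61 and 2.5 CPM in CR libraries, against 7.09, 6.53 and 5.23 CPM in naive libraries. It fell by 1.41 ± 0.137 in CR cells (adjusted p = 2.0e-07), and the naive level was 682 times the BR level (95% counting interval 122 to 26961, adjusted p = 4.5e-12).

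CTAG and PRAME are antigens aimed at by vaccines and engineered T cells. CTAG2 (LAGE-1) had 0.0544, 0.0292 and 0 CPM in BR and 0.228, 0.314 and 0.278 CPM in CR libraries, against 10.4, 7.87 and 14.5 CPM in naive libraries. Both resistant lines were well below every naive library. It fell in CR cells by 5.32 ± 0.264 (adjusted p = 6.3e-11), and the naive level was 388 times the BR level (95% counting interval 133 to 1885, adjusted p = 3.5e-11). CR cells held more of it than BR cells, 9.69 times (3.09 to 48.9, adjusted p = 0.0062). CTAG1A and CTAG1B, the NY-ESO-1 copies, had no read in any library, and 9.67% and 10.1% of their 50-base stretches occur in no other gene. PRAME, a repressor of retinoic acid receptor signalling, was below 1 CPM throughout, with 0.109, 0.0875 and 0.0548 CPM in BR and 0.494, 0.676 and 0.487 CPM in CR libraries, against 0.336, 0.227 and 0.298 CPM in naive libraries. It fell in BR cells (-1.75 ± 0.434, adjusted p = 0.0017) and rose in CR cells (0.90 ± 0.266, adjusted p = 0.0067). DESeq2 did not call the CR rise (adjusted p = 0.055).

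Of the 10 genes that match the spelling but lie outside the named families, SSX2IP and CTAGE5 were expressed in all groups. SSX2IP, a centrosome protein named for binding SSX2, had 109.6, 107 and 98.2 CPM in BR and 124, 126 and 118 CPM in CR libraries, against 49.8, 52.6 and 48.1 CPM in naive libraries. It rose in BR (1.06 ± 0.0585, adjusted p = 1.4e-10) and CR cells (1.29 ± 0.0583, adjusted p = 2.0e-11). CTAGE5, which works in export of large cargo from the endoplasmic reticulum, averaged 64.6 ± 1.05 CPM in BR and 54.1 ± 0.371 CPM in CR libraries, against 64.3 ± 4.05 CPM in naive libraries (SD, n = 3 each). It fell in CR cells (-0.25 ± 0.0550, adjusted p = 0.00085) and was not called in BR against naive cells (0.01 ± 0.0552, adjusted p = 0.91). The other 8 CTAGE genes had at most 6 reads in a group.

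Most members were silent in all 3 groups, and many of these are copies from which most reads, if there were any, would be set aside. Of the 87 family members, 43 had no read in any of the 9 libraries and 58 were silent in all 3 groups. Transcripts of 71 members were found in GENCODE release 29, including 28 of those 43. In 17 of the 28 fewer than 10% of 50-base stretches occurred in no other gene, and in 11 of them none did. The median unique share was 6.54% over the 28 and 97.8% over the 43 members that had a read and a transcript. Silence of members such as GAGE12C, SSX2 or SSX4, whose stretches are all shared, cannot be told apart from lost reads. SSX5, SSX7, XAGE2 and XAGE5 had no read although at least 50% of their stretches are unique. The labels give no read length, and with 100-base stretches 13 of the 28 stayed under 10%.

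**Figure D4:**
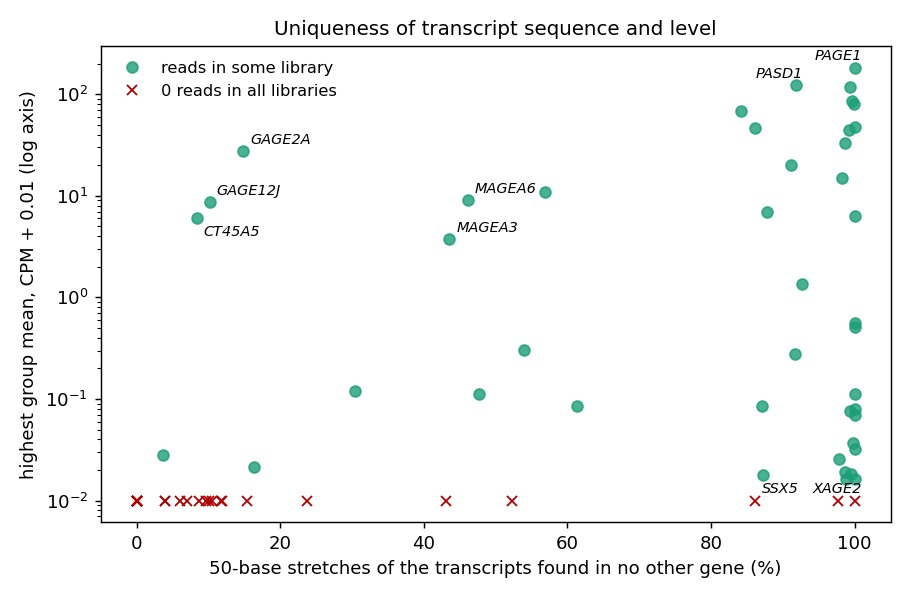
Share of 50-base transcript stretches found in no other gene (horizontal axis, percent) and the highest group mean (vertical axis, CPM + 0.01, log scale) of family members with a GENCODE transcript; circles had reads in some library and crosses had none. Of the crosses, 17 of 28 lie under 10% unique, while GAGE2A, GAGE12J and CT45A5 carried reads at 14.8% or less.

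Motifs were searched on both strands of the 250 upstream bases of the 58 members with a promoter, as a description only. The ETS-type letters CCGGAA stood in 6 of them, and in 14.5% of all 35116 promoters. The GC box GGGCGG stood in 11 (42.6% of all promoters), the E2F-type GCGGGAA in 5 (5.52%) and the E-box CACGTG in 5 (6.34%). Among the promoters printed, MAGEA3 held the ETS-type letters, MAGEC1, MAGEC2 and PAGE5 the GC box, and PAGE1 and PAGE5 the E-box. GAGE2A and PASD1 held none of the 4.

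Related gene families were described beside the members. Of 33 listed genes in or related to other cancer-testis families, 5 were tested. In BR against naive cells 1 rose and 2 fell, and in CR against naive cells 1 rose and 3 fell. These are called shares of 60% and 80%, beside 79.8% and 71.7% of all tested genes. The 5 include FAM133B, a relative of FAM133A that is not taken here as an X-linked cancer-testis gene. FAM133B was among the 3 that fell in CR cells (-0.65, adjusted p = 0.0081). It was not called in BR against naive cells (-0.05, adjusted p = 0.80). LUZP4, an mRNA export protein, had 496 reads in CR cells (3.28 ± 0.127 CPM, SD, n = 3) and none in BR or naive cells. TKTL1, a transketolase-like protein, had 2 reads in BR cells, and its naive level was 461 times the BR level (95% counting interval 127 to 3813, adjusted p = 1.9e-12). It fell by 5.01 in CR cells, and CXorf61 had 0 reads in BR cells and 1.73 ± 0.187 CPM in CR cells, against 5.93 ± 0.612 CPM in naive cells. Among the widely expressed MAGE genes, of which 5 of 12 were tested, 3 rose and 2 fell in BR cells, and 3 rose and 1 fell in CR cells. Called shares of these MAGE genes were 100% and 80.0%, beside 79.8% and 71.7% of all tested genes. MAGED1, an adaptor in cell death signalling, had 4 reads in BR and none in CR cells, against 6972 in naive cells (57.6 ± 0.558 CPM). MAGEH1 had 2 reads in BR cells, against 662 in naive cells, and rose by 0.65 in CR cells (adjusted p = 8.9e-06). MAGEF1 rose in BR (0.73) and CR cells (0.42), and MAGED2 rose in BR cells (0.71) and was not called in CR cells (adjusted p = 0.89).

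Autosomal germ-cell genes were listed beside the members, and 10 of 34 were tested. In BR against naive cells 5 rose and 4 fell (median log2 change 0.20, against -0.03 over all tested genes), and in CR against naive cells 5 rose and 5 fell (0.31, against -0.0036). Called shares of the 10 were 90% and 100%, beside 79.8% and 71.7% of all tested genes. DMRT1, a regulator of testis development, averaged 35.7 ± 0.768 CPM in BR and 0.125 ± 0.0130 CPM in CR cells, against 0.946 ± 0.121 CPM in naive cells. MAEL, a protein of the piRNA pathway, had 152 reads in CR cells and none in BR or naive cells. TEX14, which keeps germ-cell bridges open in mice, rose in BR (2.27) and CR cells (3.45). SPA17, a sperm surface protein, had no read in BR cells and averaged 1.82 ± 0.389 CPM in CR, against 0.94 ± 0.111 CPM in naive cells. DMC1, a meiotic recombinase, changed by -6.0 in BR and -0.53 in CR cells. MORC1, which silences transposons in the male germ line of mice, had 3 reads in BR cells, and its naive level was 248 times the BR level (95% counting interval 84.7 to 1206, adjusted p = 5.0e-12). It changed by -2.13 in CR cells. CTCFL, a germ-cell paralogue of CTCF that can activate cancer-testis genes, had no read in BR or CR cells and 1 read in naive cells.

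Genes of the machinery that keeps such promoters methylated or silent were described likewise. Of 14 listed DNA methylation genes, 13 were tested, with 7 higher and 3 lower in BR and 6 higher and 5 lower in CR against naive cells. The called shares, 76.9% and 84.6%, stand beside 79.8% and 71.7% of all tested genes. The maintenance enzyme DNMT1 averaged 305 ± 9.98 CPM in BR and 370 ± 21.0 CPM in CR, against 359 ± 16.8 CPM in naive cells. It fell in BR cells (-0.23, adjusted p = 0.0013), a call lost with library size alone (-0.05, adjusted p = 0.44), and was not called in CR cells (adjusted p = 0.53). The de novo enzyme DNMT3B rose in BR cells (1.38, adjusted p = 1.4e-10) and fell in CR cells (-0.51, adjusted p = 4.9e-05), and DNMT3A did the same (0.31 and -0.61). TET1, which oxidises methylcytosine, averaged 10.8 ± 0.803 CPM in BR and 0.453 ± 0.107 CPM in CR, against 2.95 ± 0.347 CPM in naive cells. TET2, of the same family, rose in BR (1.42) and CR cells (0.97). Of 23 listed repressors of germline genes, 7 were higher and 10 lower in BR, and 13 higher and 5 lower in CR against naive cells, called shares of 73.9% and 78.3% near those of all tested genes. SIN3A, a corepressor scaffold, fell by 2.47 in BR cells and by 0.16 in CR cells, where library size alone ended the call (-0.10, adjusted p = 0.16), and the deacetylase HDAC1 rose by 1.08 in BR and 0.55 in CR cells. SETDB1, a histone methyltransferase, was not called in BR cells (0.09, but called at 0.28 with library size alone) and rose by 0.71 in CR cells, and its cofactor ATF7IP fell by 0.84 in BR and by 0.76 in CR cells. None of these genes' part in the members' levels was tested.

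TRIM28, the ligase that several MAGE proteins bind, averaged 437 ± 19.3 CPM in BR and 550 ± 8.81 CPM in CR, against 437 ± 57.2 CPM in naive cells, and was called in CR against naive cells (0.33, adjusted p = 0.0011). In BR against naive cells it was called with library size alone (0.19, adjusted p = 0.037) and not with TMM (adjusted p = 0.97). USP7, a deubiquitinase that works with MAGE ligases, fell in BR (-1.28) and CR cells (-0.40), and the Polycomb protein BMI1 rose in BR (2.25) and CR cells (1.45). Of 16 tested partners 5 rose and 5 fell in BR cells, and 4 rose and 8 fell in CR cells. The partners' called shares were 62.5% and 75.0%, where 79.8% and 71.7% of all tested genes were called. Among 8 tested activators, ETS1 averaged 195 ± 9.25 CPM in BR and 5.99 ± 0.297 CPM in CR, against 8.61 ± 0.287 CPM in naive cells, while ETS2 averaged 48.1 ± 2.15, 191 ± 2.14 and 42.2 ± 0.337 CPM in BR, CR and naive cells. The receptor KIT had 1 read in BR and none in CR cells, against 335 in naive cells. Of 19 tested antigen display genes, 94.7% were called in BR and 78.9% in CR cells, beside 79.8% and 71.7% of all tested genes. Of the 19, 13 rose and 5 fell in BR, and 11 rose and 4 fell in CR cells. The 7 MHC class II genes among them (6 HLA-D chains and CD74, grouped after their values were seen) all rose in both, with 4.43 to 1266 CPM in BR and 0.263 to 225 CPM in CR, against 0.0159 to 146 CPM in naive cells. The smallest CR rise, 0.18, was not called with DESeq2 size factors (0.16, adjusted p = 0.079). CD74, the class II invariant chain, averaged 1266 ± 68.9 CPM in BR and 225 ± 2.89 CPM in CR, against 146 ± 1.98 CPM in naive cells. B2M, the light chain of MHC class I, fell by 0.86 in BR cells and by 0.55 in CR cells. HLA-B, a class I heavy chain, had -0.14 in BR cells (adjusted p = 0.048), which library size alone turned to 0.04 (adjusted p = 0.53), and was not called in CR cells (adjusted p = 0.29). The many alleles and like copies of HLA genes leave their counts uncertain.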

How the data were processed

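Gene count tables of the 9 libraries of 8226 were used. The authors deposited whole-number read counts per gene symbol in the layout of STAR, which the submitters' processing notes name with the builds hg19 and GRCh37, assigned to no file. The version and annotation release are not given in the sources used here. Column 4, the strand that holds nearly all reads, was used throughout, and 1.43% to 1.64% of stranded gene reads lay on the other strand. The first 4 rows of each table are not genes and stayed out, among them reads that map to several places (8.95% to 10.9%) and reads on no gene (10.4% to 16.6%). Of the members' reads, 275 (0.156%) were on the other strand. Replicates varied beyond counting noise (chi-square per degree of freedom 3.98 to 25.8), and no library was treated as a duplicate deposit of another.

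Tests used R 4.3.3, edgeR 4.0.16 and limma 3.58.1, with filterByExpr, TMM factors of 0.937 to 1.08, and 1 quasi-likelihood fit over the 9 libraries in 3 groups. This left 13910 genes. SEs come from the F statistic. Where a group had no read, a fold is a bound against 3 reads over that group, and where it had 1 to 3 reads the ratio carries an exact 95% counting interval. The steps were tested on simulated data. Groups and replicate numbers come from the titles. The alternatives were DESeq2 1.42.0, its size factors, library size alone, no filter, at least 1 CPM in 3 libraries, unstranded counts, only the 2 groups compared, a replicate block and leaving out each library.

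The members and gene lists were chosen with earlier results of these data known. The text names every member at 1 CPM or more in a group, other members by family, and from each other list at most the 4 called genes that moved most and reach 1 CPM in any group, with CTCFL, DNMT1, DNMT3A, DNMT3B, TRIM28, HLA-B and B2M. Some genes that this rule names are not reported here. Promoters, gene types and chromosomes come from RefSeq tables on GRCh38.p14, and stretches of 50 and 100 bases were counted over GENCODE release 29 transcripts with Python (Biopython 1.88, pandas 2.3.3). No coordinates were carried between builds.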

Additional observations from a re-analysis of the deposited data

How the results depend on the processing

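Over the 3 comparisons and all alternatives, 153 gene counts and 39 counts of expressed members stayed within 1.5 times the reported value, and so did 152 of 153 counts of called members. The exception was members lower in CR against naive cells, 11 in place of 6 with no filter on low counts, which tests more genes. Leaving out each library in turn gave 19 to 21 called members in BR against naive cells, 24 to 25 in CR against naive cells and 22 to 23 in CR against BR cells. The other alternatives, some of which test fewer or more genes, gave 15 to 25, 20 to 30 and 20 to 23. Of the fold changes of genes at 1 CPM or more in a compared group, with CTAGE5 and SSX2IP, 1024 kept their direction and call, and the rest belong to MAGEA1, MAGEA12, SSX2IP and CTAGE5. Below 1 CPM, calls were followed only under alternatives whose filter kept the gene, so a call lost by filtering was not counted. Under those, the calls of GAGE10 and CT45A5 in BR cells and of PRAME in CR cells were each lost once, as given with their values. GAGE10 was called higher in CR than in BR cells without BR replicate 2 (1.41) or CR replicate 2 (1.12). CTAGE5 in BR against naive cells, 0.01 as reported, turned to -0.023 with DESeq2 and with its size factors and to -0.0081 with only the 2 groups. Leaving out each library gave it -0.030 to 0.056, below 0 without naive replicate 1 or 3 or BR replicate 1, and library size alone gave a call at 0.19. MAGEA1 turned to 0.12 in BR against naive cells with library size alone, which also ended the call of SSX2IP in CR against BR cells (0.10, adjusted p = 0.11). The cause was not tested. MAGEB6 was called lower in both resistant lines with no filter and without naive replicate 1 or any 1 BR or CR library. Correlations of same-numbered deviations were -0.07 to 0.16, and those of unlike-numbered ones -0.15 to 0.11. The labels do not say whether the replicate numbers pair the libraries, and so few values cannot decide it. With the replicate block 19, 24 and 22 members were called, as without it. Cutoffs of 0.5 and 2 CPM for an expressed member were chosen after seeing the data. At 31709636 reads in the shallowest library, levels near 0.1 CPM rest on a few reads, and copies without unique sequence cannot be counted.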

Other observations

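Genes next to the members on chromosome X were examined with those members at 1 CPM or more in a group. The nearest tested gene on each side that is not a member gave 26 neighbours of 22 members, in RefSeq order. No limit was set on distance, so a neighbour can lie far off with untested genes between. Of these, 11 rose and 11 fell in BR against naive cells, 13 rose and 9 fell in CR against naive cells, and 15 rose and 8 fell in CR against BR cells. The called shares of 84.6%, 84.6% and 88.5% stand beside 79.8%, 71.7% and 76.9% of all tested genes. ZNF182, a zinc finger gene next to SSX1 and SSX6, had 0.00907 CPM in BR and 23.4 CPM in CR, against 29.3 CPM in naive cells. MAGEH1, next to PAGE5, had 0.0189 CPM in BR and 8.58 CPM in CR, against 5.47 CPM in naive cells. PNPLA4, next to FAM9B, was listed at 0 in BR and CR cells and averaged 8.05 CPM in naive cells. FMR1, the nearest tested gene after MAGEC1 and MAGEC2, averaged 81.5 CPM in BR and 101 CPM in CR, against 101 CPM in naive cells. The neighbours named here were chosen after their values were seen.

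Over all 416 tested genes of chromosome X that are not members, 157 rose and 164 fell in BR against naive cells, and 150 rose and 171 fell in CR against naive cells. In CR against BR cells 157 rose and 172 fell. For BR against naive cells these are 37.7% higher and 39.4% lower, against 38.2% and 41.6% of all tested genes. For CR against naive cells they are 36.1% and 41.1%, against 35.0% and 36.7% of all tested genes, and for CR against BR cells 37.7% and 41.3%, against 39.9% and 37.0%. Past 5 on the log2 scale, 57 of the X-linked genes (13.7%) were lower in BR against naive cells, against 8.27% of all tested genes, and 5 (1.20%) were higher, against 1.32%. In CR against naive cells 12 (2.88%) were higher and 23 (5.53%) lower, against 1.46% and 4.22%. In CR against BR cells 42 (10.1%) were higher and 3 (0.721%) lower, against 5.48% and 1.37%. The difference between chromosomes was not tested, and the cutoff of 5 was chosen with these data in view.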
